A study of Mus musculus with 4 samples.

Results

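The messenger RNAs of the cytosolic ribosomal proteins were examined in leukaemic cells from mouse spleen. Members were the genes whose names start with Rpl or Rps and a digit, with Rplp0, Rplp1, Rplp2 and Rpsa, leaving out pseudogene names with -ps, the Rps6k kinases, Rps19bp1 and opposite-strand names. The rule took 88 of 24497 mouse genes in the table, 54 of the large and 34 of the small subunit. It kept Rpl32l and Rpl37rt, whose names do not show it but which GENCODE annotates as processed pseudogenes. The 4 RNA-seq libraries fall into 2 groups of 2, WT and Tet2 KO, by the genotype of the donor marrow from which the leukaemia was made. In both groups, blood stem cells had been turned into acute myeloid leukaemia cells with NRAS, a signalling oncogene, and AE9a, a truncated AML1-ETO fusion. Cells were cultured with SCF, IL-3, IL-6, G418 and puromycin, and the recipients were CD45.1 mice aged 6 to 8 weeks that had been irradiated with 900 cGy. RNA came from spleen cells enriched for CD45.2, the donor form of that surface protein. The labels give neither the Tet2 allele nor the promoters driving NRAS and AE9a. Nor do they tie each library to its own mouse. The p-values below therefore rest on the scatter of these libraries alone, and that scatter may be technical.

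A ribosome is built from a large and a small subunit, each a scaffold of ribosomal RNA that carries one copy of most of its proteins. The small subunit reads the messenger RNA, and the large subunit joins amino acids and passes the growing chain out through a tunnel. Most ribosomal protein mRNAs begin with a short run of pyrimidines (C or T in DNA letters), the terminal oligopyrimidine or TOP motif, through which mTOR signalling and the RNA-binding protein Larp1 control their translation and stability. Blood formation is sensitive to the supply of these proteins: inherited loss of a single copy of several of them causes Diamond-Blackfan anaemia, a failure of red cell production.

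Tet2, the gene named by the knockout label, was listed at 43.5 and 43.7 TPM in the WT libraries, against 63.7 and 68.1 TPM in those labelled KO. Its log2 difference was 0.58 ± 0.19, limma adjusted p = 0.017, so the level of the whole gene did not separate the groups in the direction of the label. The second group is therefore called the libraries labelled KO. Estimated depth was 19.1 to 23.8 M reads (M, 10 to the power 6), and 11300 to 11467 genes reached 1 TPM (transcript abundance scaled to the same total in every library) in each library. ERCC spike-ins, control RNAs, took 4.66% and 4.62% of TPM in WT and 2.95% and 3.19% in the libraries labelled KO. The 20 most abundant genes took 14.0% and 13.9% in WT against 23.0% and 20.8%. Over 1970 single-transcript genes, WT replicates varied 1.11 times as much as read sampling alone would give (variance ratio), so they were averaged and counted as 1 sample. Between the libraries labelled KO the ratio was 5.65 (2095 genes). Defining blood cell and myeloid markers were present in all libraries, among them Ptprc, which encodes CD45, at 292 and 296 TPM in the WT libraries, against 413 and 396 TPM in those labelled KO, and the myeloid factor Spi1 at 662 and 629.9 TPM in the WT libraries, against 649.9 and 508 TPM in those labelled KO. Of the 7 genes of that list 5 rose, Lyz2 and Fcgr3 among them, and Ptprc and Spi1 did not pass the threshold (0.46, limma adjusted p = 0.118, and -0.17, limma adjusted p = 0.62). Their summed TPM was 3936 and 3929 in WT and 9745 and 8066 in the libraries labelled KO.

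The start of the mRNA is where the family's shared control sequence lies, so start sites are shown first. RefSeq promoter windows (build GRCm38.p6), 250 bases before to 50 bases after each start, matched 67 of the 88 members in 79 windows. In 15 windows (19%, against 2.51% of 32851 windows of all genes) the first transcribed base opened a run of at least 5 C or T letters with C first. A run of at least 8 such letters lay between 20 bases before and 50 after the start in 52 windows (65.8%, against 20%). These runs were searched on the sense strand only. Most of the 79 windows did not open with a run of at least 5 at the annotated start, which was taken as given. The 30-base windows below, picked mostly for their runs, run from 10 bases before the start, with the run at the start in capitals. They are of 4 members with long runs, 2 with short runs, and a paralog without one. They lie at chr14:18270967-18270996 on the minus strand (Rpl15), chr2:39005112-39005141 on the minus strand (Rpl35), chr17:27635225-27635254 on the minus strand (Rps10), chr4:86857348-86857377 on the minus strand (Rps6), chr7:141447641-141447670 on the plus strand (Rplp2), chr2:180257369-180257398 on the plus strand (Rps21) and chr17:24727816-24727845 on the plus strand (Rpl3l).
Rpl15: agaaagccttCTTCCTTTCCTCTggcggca
Rpl35: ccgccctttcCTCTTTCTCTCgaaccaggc
Rps10: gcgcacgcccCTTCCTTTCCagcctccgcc
Rps6: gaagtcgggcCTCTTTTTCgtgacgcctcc
Rplp2: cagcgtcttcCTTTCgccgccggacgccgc
Rps21: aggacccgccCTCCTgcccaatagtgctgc
Rpl3l: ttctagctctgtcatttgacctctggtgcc
Letter motifs were counted on both strands of the whole window. CCGGAAG, the core of the ETS factor motif, was present in 27 windows (34.2%, against 8.86% of all). AAGATGG, the core of the YY1 motif, was present in 12 (15.2%, against 6.34%). CACGTG, the E-box that MYC binds, was present in 8 (10.1%, against 7.15%), and TATAAA in 8 (10.1%, against 13.6%). These matches describe the letters, and no binding was measured.

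Ribosomal protein mRNA took a smaller share of the transcriptome in the libraries labelled KO. The summed TPM of the 88 members was 15.7% of mouse TPM in each WT library and 7.13% and 8.84% in the libraries labelled KO (mean 7.98% ± 1.21, SD, n = 2), which is 51.0% of the WT level. Both subunits were lower. The large subunit's share was 8.52% in each WT library and 3.89% and 4.85% in the libraries labelled KO, and the small subunit's was 7.13% and 7.16% against 3.23% and 3.99%. The ratio of large to small subunit TPM stayed between 1.19 and 1.21 in the 4 libraries. The share is relative to the rest of the RNA: against the ERCC total, the summed level in the libraries labelled KO was 78.1% of WT, and with ERCC, Rn45s and the most abundant genes left out of the total it was 58.4%. In bulk RNA, fewer cells of a type and less RNA per cell cannot be told apart.

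**Figure D1:**
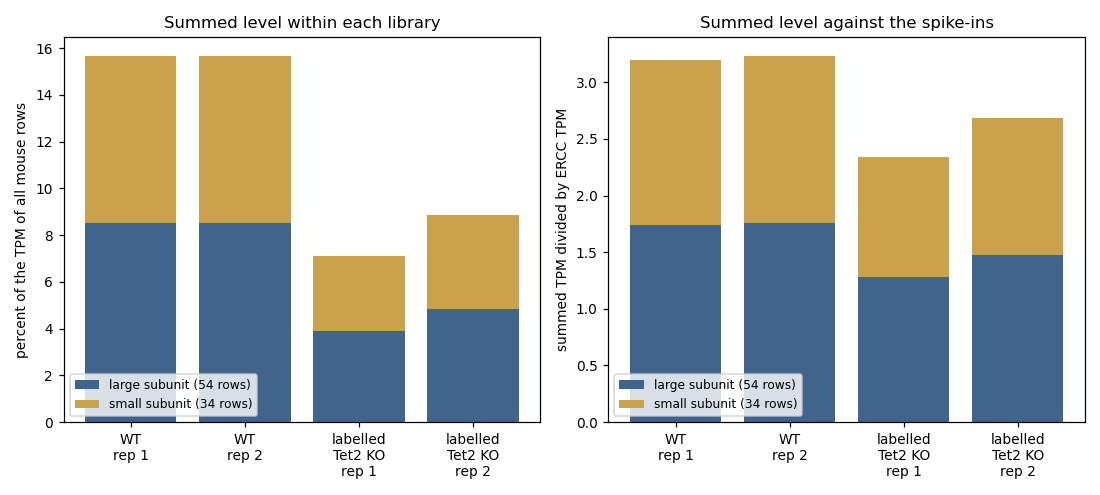
Summed TPM of the large (lower segment) and small (upper segment) subunit members in each library, as a percentage of mouse TPM (left) and divided by the ERCC total (right). The bars reach 15.7% in WT and 7.13% and 8.84% in the libraries labelled KO on the left, and 3.20 and 3.24 against 2.34 and 2.68 on the right.

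The filter of at least 1 TPM in at least 2 libraries left 83 members tested, 50 of the large and 33 of the small subunit. Of these, 40 large and 27 small subunit members fell (limma, adjusted p under 0.05), against 26.7% of all 11919 genes tested that were lower and 22.3% that were higher. Of the processed pseudogenes the rule kept, Rpl37rt is among the 40 (limma adjusted p = 0.0205) and Rpl32l is not (limma adjusted p = 0.0545). The counts are thus of gene names and not of distinct proteins. The median log2 difference, labelled KO minus WT on the log2(TPM + 1) scale, was -0.93 over the large and -1.01 over the small subunit members, beside -0.11 over all genes tested. Of the 83, 81 were above 1 TPM in WT, and in all of these both libraries labelled KO lay below both WT libraries. Non-overlap in that direction held for 48.7% of all genes tested. These calls depend on the scale: after ERCC scaling, no large and 1 small subunit member (Rps27l) fell by limma (2 and 4 at an unadjusted p under 0.05), against 12.5% of all genes lower and 41.6% higher, and the all-gene median became 0.44. With no filter on low genes 0 large and 1 small subunit members fell (4 and 6 unadjusted), against 7.33% of all genes lower and 1.03% higher, while the medians stayed at -0.93 and -1.01. With quantile normalization 5 and 5 fell, against 20.4% lower and 20.2% higher. Relative to the all-gene median on the same scale, the members' median was -0.82 (large) and -0.90 (small) in TPM and -0.77 and -0.85 after ERCC scaling. Scaling a library moves members and other genes together, so these values are bound to be close. With quantile normalization they were -0.66 and -0.63.

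**Figure D2:**
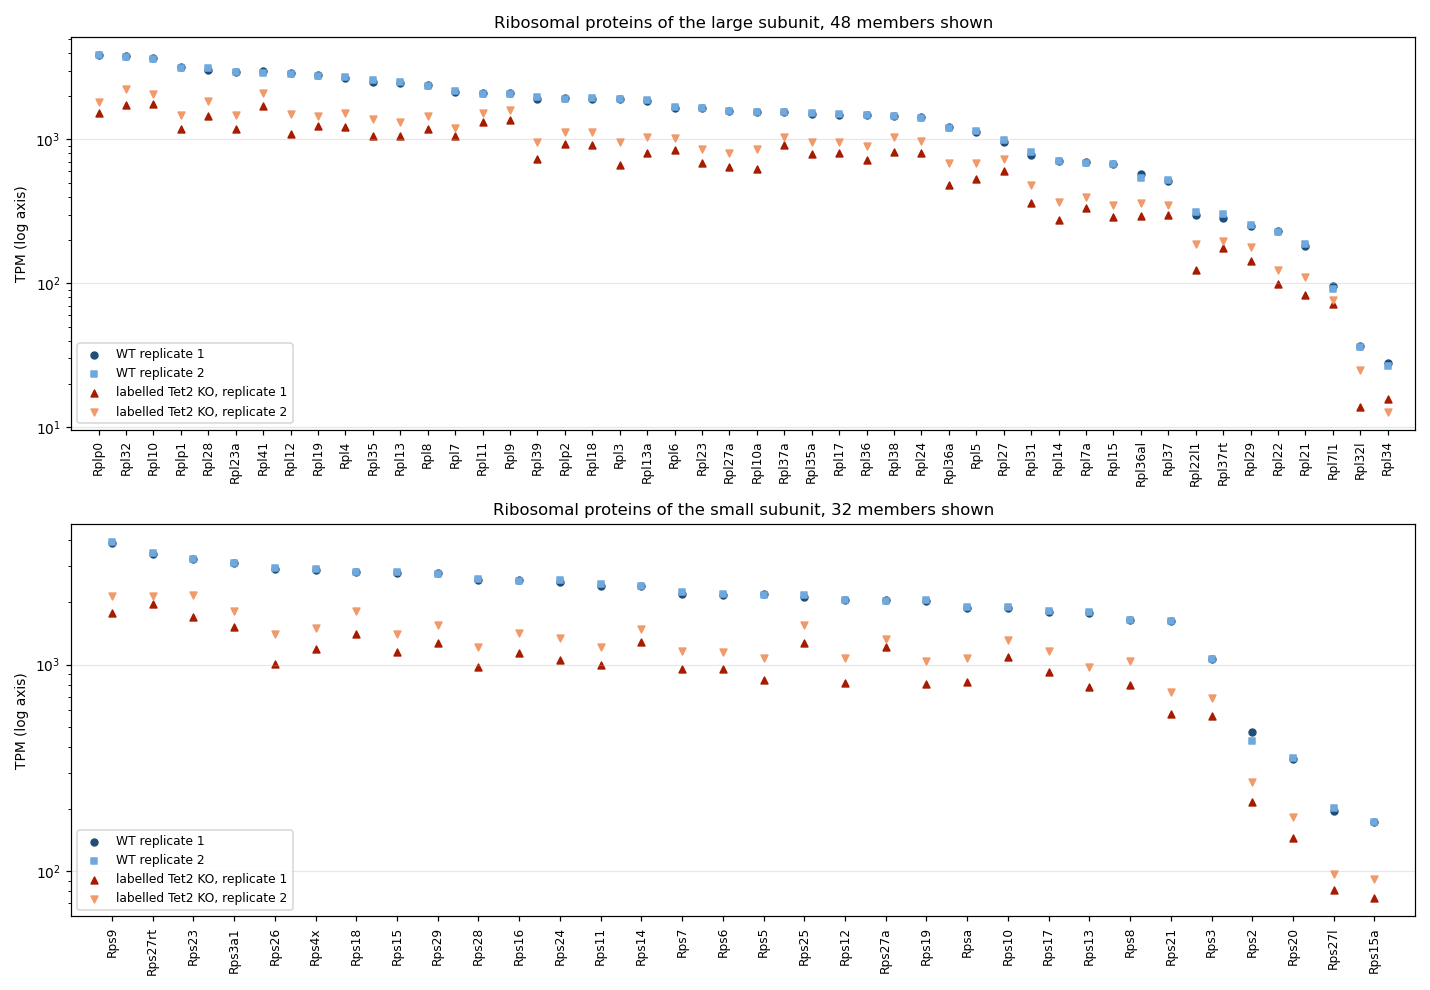
TPM in the 4 libraries of 80 of the 81 members above 1 TPM in WT, on a log axis, with members ordered by WT level within each subunit. Both libraries labelled KO lie below both WT libraries for all 80 members shown.

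Among the 81 members above 1 TPM in WT, the level in the libraries labelled KO was a median of 52.1% of WT, from 40.4% for Rps21 to 79.9% for Rpl7l1. It lay at 40 to 50% for 34 members, at 50 to 60% for 33, at 60% or more for 14 and under 40% for none. The log2 differences spread narrowly, with an SD of 0.21 among members and an interquartile range of -1.11 to -0.80. The SE of one member's difference was 0.19 to 0.34. That SE includes the shift between the libraries labelled KO, which members shared (median log2 0.31). It therefore does not measure the error of a difference between members. Across 79 members the difference had Pearson r = -0.02 with transcript length, -0.07 with coding length and -0.19 with log2 WT TPM; these values are across genes that share the same libraries and are given as a description. The libraries labelled KO differed from each other: replicate 2 was above replicate 1 in 80 of the 81, with medians of -0.82 and -1.14 relative to WT, and Rpl34 was the exception.

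**Figure D3:**
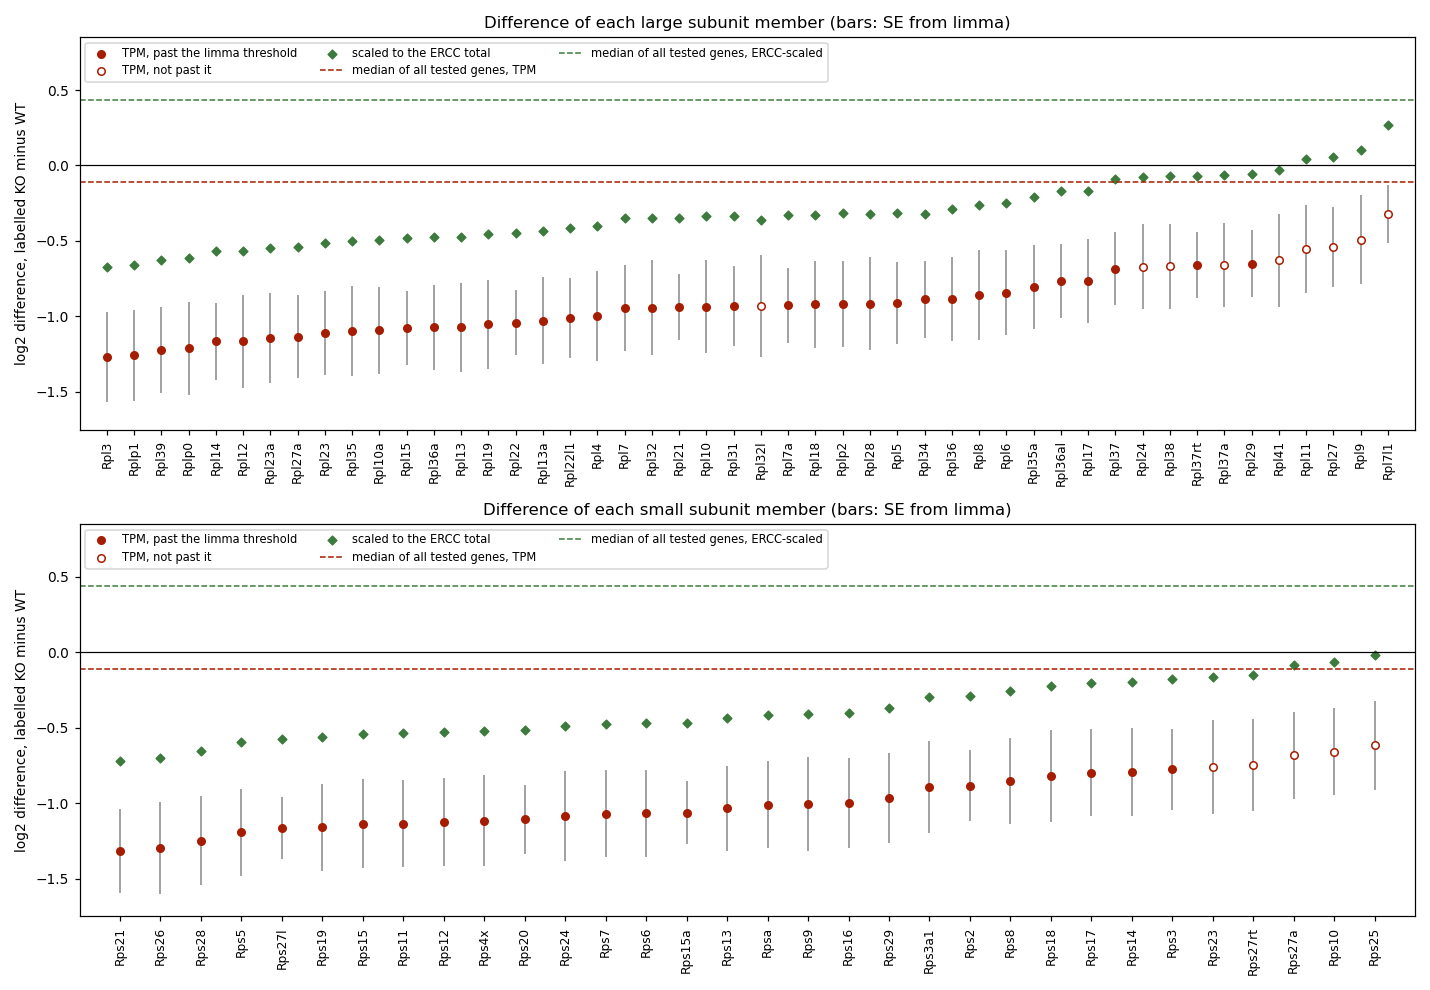
Log2 difference (labelled KO minus WT, log2(TPM + 1) scale) of each member with its standard error from limma, for 80 of the 81 members above 1 TPM in WT, by subunit, with filled points past the threshold, open points not, diamonds for the difference scaled to the ERCC total and dashed lines at the median of all genes tested on each scale. The TPM differences lie between -1.32 and -0.32, and 76 of the 80 diamonds lie below 0.

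The stalk of the large subunit, which recruits the elongation factors, is made of Rplp0, which anchors it, and the acidic proteins Rplp1 and Rplp2. Rplp0 was listed at 3857 and 3864 TPM in the WT libraries, against 1517 and 1829 TPM in those labelled KO. Rplp1 was listed at 3214 and 3117 TPM in the WT libraries, against 1179.6 and 1484 TPM in those labelled KO. Rplp2 was listed at 1944 and 1927 TPM in the WT libraries, against 935 and 1126 TPM in those labelled KO. In each of the 3 genes the groups did not overlap, as in all 81 members above 1 TPM in WT. Non-overlap with lower values in the libraries labelled KO held for 48.7% of all genes tested. All 3 fell, with log2 differences of -1.21 ± 0.31, limma adjusted p = 0.004 for Rplp0, -1.26 ± 0.30, limma adjusted p = 0.00272 for Rplp1 and -0.92 ± 0.28, limma adjusted p = 0.0147 for Rplp2. Rplp0 and Rplp1 were at 43.3% and 42.1% of WT, and Rplp2 at 53.2%. The 3 falls stand beside 40 of 50 large subunit members and 26.7% of all genes tested that were lower.

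Rpl5 and Rpl11 enter the large subunit together with its smallest rRNA, and when unassembled they bind Mdm2, the ubiquitin ligase of p53. Rpl5 was listed at 1132 and 1150.0 TPM in the WT libraries, against 533 and 692 TPM in those labelled KO. Rpl11 was listed at 2119 and 2070.4 TPM in the WT libraries, against 1323 and 1538 TPM in those labelled KO. Both were lower in each library labelled KO than in either WT library, as were all 81 members above 1 TPM in WT. Rpl11 was the less reduced. Rpl5 fell (-0.91 ± 0.27, limma adjusted p = 0.0117), whereas the difference of Rpl11 did not pass the threshold (-0.55 ± 0.29, limma adjusted p = 0.129), and after ERCC scaling it was 0.04. Whether the differences of Rpl5 and Rpl11 themselves differ was not tested.

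Near the peptidyl transferase centre, where peptide bonds form, Rpl3, Rpl4, Rpl8 and Rpl10 all fell, at 42.1 to 55.5% of WT. Rpl10a, of the mobile stalk beside the tRNA exit site, fell as well (-1.09, limma adjusted p = 0.0052). Rpl3, which reaches toward the centre, had the largest fall of the large subunit, with 1914 and 1918 TPM in the WT libraries, against 660.1 and 954 TPM in those labelled KO (-1.27 ± 0.30, limma adjusted p = 0.00264). Both libraries labelled KO were far below WT, replicate 1 further. Rpl10, whose late loading completes the large subunit, had a log2 difference of -0.94, limma adjusted p = 0.0198. Around the exit of the peptide tunnel, 7 of 8 tested proteins fell, with a median of -1.05. That count stands beside 40 of 50 large subunit members and 26.7% of all genes tested that were lower. Rpl39, a small protein that lines the tunnel, was listed at 1918 and 1971 TPM in the WT libraries, against 726 and 953 TPM in those labelled KO (-1.22 ± 0.29, limma adjusted p = 0.00236). Rpl38, known for its role in the translation of Hox mRNAs, was the member of this group that did not pass the threshold (-0.67, limma adjusted p = 0.0624).

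In the head of the small subunit, which holds the mRNA path, 9 of 10 listed proteins fell, with a median of -1.04. The group counts here stand beside 27 of 33 small subunit members and 26.7% of all genes tested that were lower. Rps28, which lies near the mRNA exit, was listed at 2569 and 2604 TPM in the WT libraries, against 974 and 1216 TPM in those labelled KO (-1.25 ± 0.29, limma adjusted p = 0.00236). Rps19, the gene most often mutated in Diamond-Blackfan anaemia, was listed at 2037 and 2051 TPM in the WT libraries, against 803 and 1042 TPM in those labelled KO (-1.16 ± 0.29, limma adjusted p = 0.0036). In both genes, as in all 81 members above 1 TPM in WT, the groups did not overlap. Replicate 1 of the libraries labelled KO was the lowest in both. Rps10 did not pass the threshold (-0.66, limma adjusted p = 0.0699). On the platform side, where the small subunit meets the initiation machinery, all 6 tested proteins fell, with a median of -1.10. Rps21 had the largest fall of all members, with 1629.9 and 1622 TPM in the WT libraries, against 579 and 734 TPM in those labelled KO (-1.32 ± 0.28, limma adjusted p = 0.000989). Rps26, which contacts mRNA upstream of the start codon, was listed at 2914 and 2944 TPM in the WT libraries, against 1010.2 and 1407 TPM in those labelled KO (-1.30 ± 0.31, limma adjusted p = 0.00258). Replicate 2 of the libraries labelled KO lay nearer WT in both. In the body, which carries the decoding site, 6 of 7 tested proteins fell, with a median of -1.07. Rps9 was among the most abundant members, at 3891 and 3925 TPM in the WT libraries, against 1776 and 2140.1 TPM in those labelled KO (-1.003 ± 0.31, limma adjusted p = 0.0143), and Rps23, a protein of the decoding centre, did not pass the threshold (-0.76, limma adjusted p = 0.0553).

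Of the 15 listed Diamond-Blackfan anaemia genes, 13 were tested and 10 fell, with a median of -0.97, against 26.7% of all genes lower. The 3 that did not pass were Rpl11, Rpl27 (-0.54, limma adjusted p = 0.107) and Rps10. Rpl26 and Rps27 were not tested, as both were listed at or near 0. The 4 X-linked members, Rpl10, Rpl36a, Rpl39 and Rps4x, all fell, with a median of -1.09, as did 67 of the 83 members tested. Xist, the RNA of the inactive X chromosome, was listed at 0.34 and 0.34 TPM in the WT libraries, against 86.0 and 28.2 TPM in those labelled KO. It was low in both WT libraries and unequal in those labelled KO. What the Xist difference reflects, and its part in the values of X-linked and other genes, was not tested. It cannot be told apart from the group label. In all, 14 members above 1 TPM in WT, 9 large and 5 small, did not pass the threshold, with limma adjusted p from 0.0543 to 0.178. All 14 passed when both WT libraries were taken as samples, a fit that called 49 large and 32 small subunit members lower and 1 of each higher, against 37.9% and 29.5% of all genes.

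To compare members with each other free of library scaling, each library was centred on its median member and the fit repeated. The centring moves all other genes against the members, which shapes the all-gene shares below. It also puts the shift that members shared between the libraries labelled KO (median log2 0.31) onto the other genes. The SE of a member's departure ran from 0.30 (Rpl34) to 0.43 (Rpl22l1), above the SD of 0.21 among members. The fit could therefore not resolve departures of the size of that SD. With 1 residual degree of freedom, limma draws a member's SE largely from the scatter of all genes tested. The centring had moved those genes, so this SE does not measure the scatter of the member itself. For Rpl9 it was 0.37, against 0.29 before the centring. A lack of calls here is thus a limit of the fit and does not show that members moved alike. Of the 81 members above 1 TPM in WT none was then higher and none lower by limma (0 and 0 at an unadjusted p under 0.05 too), against 58.8% and 6.57% of all genes. The other 2 tested members, Rpl3l and Rps4l, came out higher, but they had passed the filter only through the libraries labelled KO, which fixes that direction. With both WT libraries as samples, 16 members were higher and 0 lower, against 72.4% and 8.98%. Among the 14 of these above 1 TPM in WT, the furthest from the median member was Rpl7l1 (0.73 ± 0.14, limma adjusted p = 0.00591), followed by Rpl9 (0.56 ± 0.11, limma adjusted p = 0.00653), Rpl27 (0.51 ± 0.12, limma adjusted p = 0.00992) and Rpl11 (0.49 ± 0.11, limma adjusted p = 0.0103). That fit counts WT libraries that differed by little more than read sampling as separate samples. With WT as 1 sample the SEs of these departures were 0.39, 0.37, 0.39 and 0.37, and none passed the threshold. Rpl9, a large subunit protein, was listed at 2097 and 2073 TPM in the WT libraries, against 1376 and 1597 TPM in those labelled KO. Rpl7l1, a relative of Rpl7 found on assembling large subunits, was listed at 95.1 and 91.5 TPM in the WT libraries, against 72.0 and 77.1 TPM in those labelled KO, where its parent Rpl7 had a log2 difference of -0.94, limma adjusted p = 0.0125. Rpl7l1 was thus the member nearest its WT level, although its own difference did not pass the threshold (-0.32, limma adjusted p = 0.178) and was 0.27 after ERCC scaling.

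Some members have paralogs that can replace them in ribosomes. Rpl22, which represses the mRNA of its paralog Rpl22l1, was listed at 231 and 227 TPM in the WT libraries, against 99.0 and 124 TPM in those labelled KO, and fell (-1.04, limma adjusted p = 0.000901). Rpl22l1 was listed at 300.3 and 315 TPM in the WT libraries, against 123 and 188 TPM in those labelled KO, and fell too (-1.01, limma adjusted p = 0.00776). The groups did not overlap in either gene, as in all 81 members above 1 TPM in WT. Rps27l, a p53-induced relative of Rps27, was listed at 196 and 203 TPM in the WT libraries, against 80.7 and 96.8 TPM in those labelled KO, and fell (-1.16 ± 0.21, limma adjusted p = 0.000239). Rpl36al, an autosomal relative of Rpl36a, was listed at 576 and 538 TPM in the WT libraries, against 295 and 362 TPM in those labelled KO (-0.77, limma adjusted p = 0.0168), beside -1.07, limma adjusted p = 0.0059 for Rpl36a. Rpl3l, the striated muscle form of Rpl3, was listed at 0.30 and 0.25 TPM in the WT libraries, against 3.02 and 2.42 TPM in those labelled KO, and Rps4l, a relative of Rps4x, at 0.11 and 0 TPM in the WT libraries, against 1.59 and 1.32 TPM in those labelled KO. Both were low everywhere and rose (1.54 ± 0.27, limma adjusted p = 0.000243, and 1.22 ± 0.25, limma adjusted p = 0.000786). Both passed the filter only through the libraries labelled KO. Rpl10l and Rpl39l, known from testis, were listed at 0 or below 1 TPM in all 4 libraries.

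Where a gene has a near-identical copy, reads cannot be assigned with certainty, and 17 distinct pairs of a member and a copy, 13 of them with a processed pseudogene, shared at least 95% identity over at least 80% of the coding sequence (GENCODE M21 transcripts, mm10 coordinates). Rps27 was listed at 0 in 3 libraries and at 0.73 TPM in the other, while Rps27rt, whose 255-base coding sequence has no mismatch to it, was listed at 3438 and 3456 TPM in the WT libraries, against 1970.4 and 2139 TPM in those labelled KO. Rpl26 was listed at 0 in all libraries, and its copy Gm15772 (a processed pseudogene at chr5:3236431-3236868) at 2431 and 2485 TPM in the WT libraries, against 1147 and 1348 TPM in those labelled KO (log2 difference -0.98). Rpl30 reached 2.68 TPM in 1 WT library and was listed at 0 in the others, and its copy Gm12191 (a processed pseudogene at chr11:49678710-49679057) was listed at 1571 and 1613 TPM in the WT libraries, against 718 and 894 TPM in those labelled KO (log2 difference -0.99). Every cell uses Rpl26, Rpl30 and Rps27, so a listing at 0 describes the table and not the gene. The coding stretches below show how little separates each pair, with the mismatched base in capitals, positions counted from 1 at the A of the start codon and the member's base first: C177T for Rpl26, G96A for Rpl30 and T132C for Rpl34. The whole coding sequences differ from their copies at 2 positions for Rpl26, 1 for Rpl30 and 2 for Rpl34.
Rpl26: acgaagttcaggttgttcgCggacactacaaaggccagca
Gm15772: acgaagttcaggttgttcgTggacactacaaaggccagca
Rpl30: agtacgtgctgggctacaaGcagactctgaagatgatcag
Gm12191: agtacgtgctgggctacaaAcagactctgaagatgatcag
Rpl34: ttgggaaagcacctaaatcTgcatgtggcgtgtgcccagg
Rpl34-ps1: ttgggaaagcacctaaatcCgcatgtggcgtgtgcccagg
Rpl34 was listed at 27.8 and 26.5 TPM in the WT libraries, against 15.7 and 12.8 TPM in those labelled KO, far below Rpl34-ps1 (chr6:71124610-71124963) at 1781 and 1804 TPM in the WT libraries, against 982 and 1181 TPM in those labelled KO (log2 difference -0.73). The 14 copies outside the members summed to 0.875% and 0.897% of mouse TPM in WT and 0.414% and 0.503% in the libraries labelled KO. Adding all copies to the members left the summed level at 51.0% of WT.

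**Figure D4:**
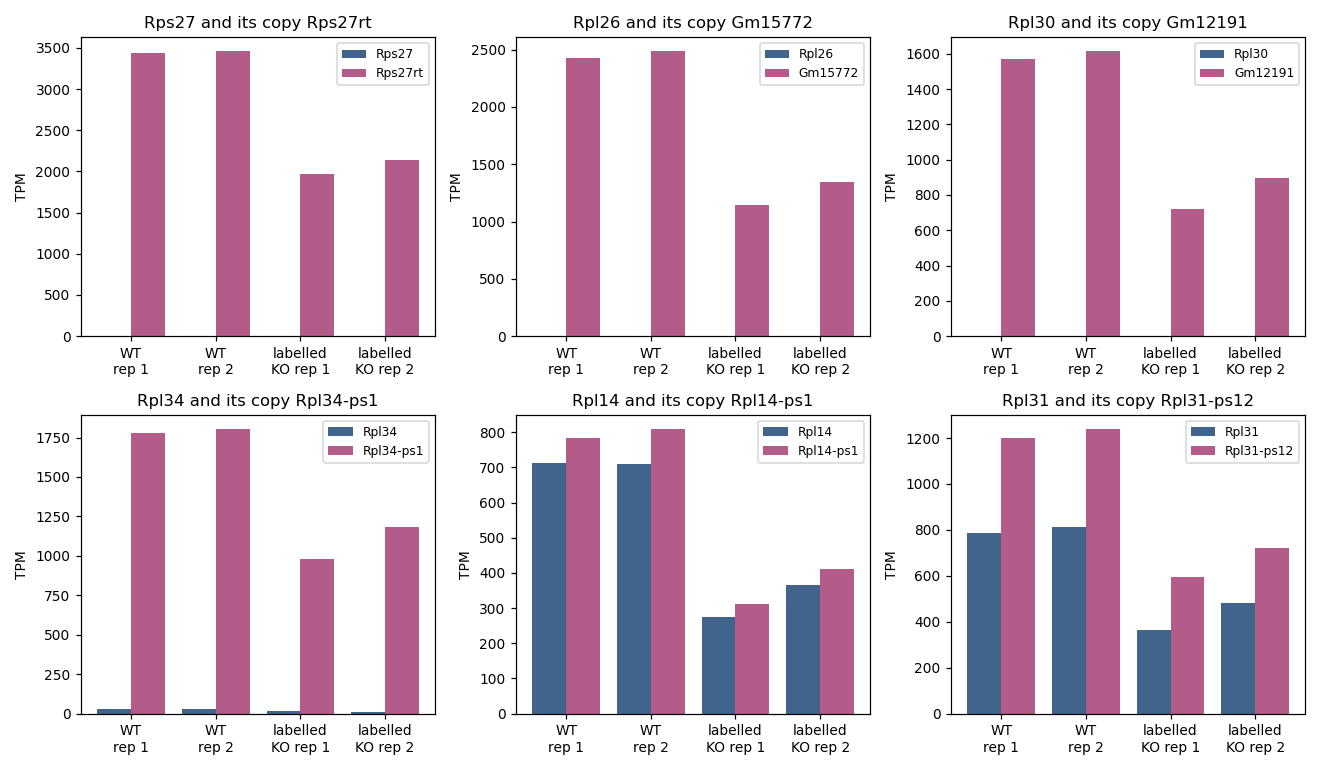
TPM in the 4 libraries of 6 members with near-identical copies, beside those copies. Most of the signal of Rps27, Rpl26, Rpl30 and Rpl34 is listed under the copy, and the copies are lower in the libraries labelled KO too.

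Rack1, a scaffold on the small subunit head, was listed at 1966 and 1994 TPM in the WT libraries, against 827 and 1053 TPM in those labelled KO, and fell (-1.08 ± 0.29, limma adjusted p = 0.00543). Fau, which encodes a small subunit protein, did not pass the threshold (-0.50, limma adjusted p = 0.165). Of the 78 mitochondrial ribosomal proteins, which serve a separate ribosome, 35 fell and 1 rose, with a median of -0.53, against -0.93 and -1.01 for the cytosolic subunits. Over all genes tested 26.7% were lower and 22.3% higher. After ERCC scaling 5 mitochondrial ones fell and 8 rose, with a median of 0.05, against 12.5% of all genes lower and 41.6% higher. The difference between these lists was not tested.

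The counts of other lists below are read beside the 26.7% of all genes that were lower and the 22.3% that were higher. Of 20 other genes with TOP mRNAs, 11 fell and none rose, with a median of -0.71. They include Eef1g, an elongation factor subunit (-1.83, limma adjusted p = 1.39e-05), and Gas5, a host of small nucleolar RNAs (-1.44, limma adjusted p = 5.22e-05). Of 19 genes that regulate TOP mRNAs, 3 fell and 2 rose, both smaller shares than over all genes. Larp1, which binds the TOP motif, was listed at 158 and 156 TPM in the WT libraries, against 65.6 and 76.0 TPM in those labelled KO, and fell (-1.14 ± 0.20, limma adjusted p = 0.000192). Eif4ebp1, an mTOR-controlled repressor of cap binding, also fell (-1.23, limma adjusted p = 0.000122), while its relative Eif4ebp2 rose (0.56, limma adjusted p = 0.0248). Tsc1, an upstream inhibitor of mTOR, rose (0.74, limma adjusted p = 0.0122). Of 24 chaperones, importers and assembly factors, 10 fell and none rose, among them Rpf2, which helps load Rpl5 and Rpl11 (-1.72, limma adjusted p = 5.06e-05), and Grwd1, a chaperone of Rpl3 (-1.46, limma adjusted p = 0.000852). Of 12 collision and rescue factors 6 fell and none rose, among them Nemf, which marks stalled chains (-1.07, limma adjusted p = 0.000842), and Abce1, which splits ribosomes (-0.99, limma adjusted p = 0.000621). After ERCC scaling the median was -0.12 for the TOP mRNAs, 0.39 for their regulators, 0.105 for the chaperones and 0.05 for the rescue factors, against -0.71, -0.18, -0.46 and -0.53 in TPM, so all but the first changed sign. On that scale 5 TOP mRNAs fell and 1 rose, 2 regulators fell and 8 rose, 3 chaperones fell and 5 rose, and 1 rescue factor fell and 2 rose, against 12.5% and 41.6% of all genes.

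Myc, the transcription factor that drives ribosomal protein genes and ribosome assembly, was listed at 57.5 and 57.0 TPM in the WT libraries, against 12.2 and 13.8 TPM in those labelled KO, and fell (-2.06 ± 0.23, limma adjusted p = 2.81e-06). Both libraries labelled KO were far below WT. Of the 11 tested genes of its network, 6 rose and 2 fell. Mnt (1.95, limma adjusted p = 1.21e-06) and Mxi1 (1.41, limma adjusted p = 1.65e-05), which pair with Max in place of Myc, rose, and Mycl fell (-2.60, limma adjusted p = 9.31e-06). Of 8 tested genes of p53 control by free ribosomal proteins, 3 fell and 2 rose. Cdkn1a, a p53 target that stops the cell cycle, was listed at 1121 and 1097 TPM in the WT libraries, against 186 and 265 TPM in those labelled KO, and fell (-2.31 ± 0.26, limma adjusted p = 4.87e-06). Trp53, which encodes p53, fell (-1.34, limma adjusted p = 2.88e-05), as did Npm1, a nucleolar chaperone (-1.35, limma adjusted p = 0.000335), and Mdm2 rose (1.14, limma adjusted p = 0.00103). The other riser, Mdm1 (1.37, limma adjusted p = 0.0012), is a microtubule-binding protein that shares only its name with Mdm2. Of 8 tested kinases of the Rps6k family, Rps6ka2 rose (1.28, limma adjusted p = 5.36e-05) and Rps6kc1 fell (-1.98, limma adjusted p = 6.7e-05). The relation of these genes to the members was not tested.

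**Figure D5:**
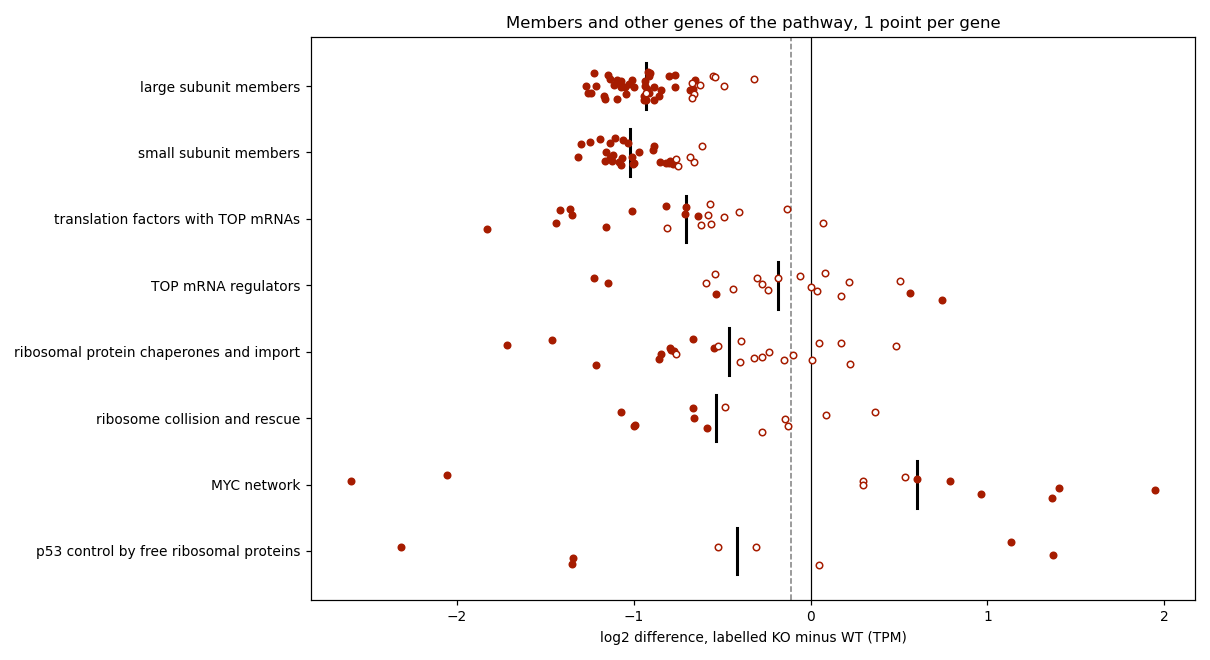
Log2 difference (labelled KO minus WT, log2(TPM + 1) scale) of each tested gene in the member and pathway lists, with genes past the limma threshold filled, others open, a black bar at each list's median and a dashed line at the median of all genes tested. The cytosolic subunits have medians of -0.93 and -1.01, and the MYC network has one of 0.60.

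Markers of cell types and stages differed between the same libraries, and their part in the members' differences was not tested. Among the genes counted below, Ly6g (neutrophil) and Gfi1 (early granulocyte) passed the filter only through the libraries labelled KO. Siglech (dendritic cell) passed it only through WT. That fixes their directions. Of 15 neutrophil genes (granule proteins, S100a8, S100a9 and surface proteins such as Cxcr2) 14 rose, and their summed TPM was 1980 and 2023 in WT and 122800 and 103600 in the libraries labelled KO. All 7 tested genes of early granulocytes (primary granule proteins, the membrane protein Ms4a3 and the factors Cebpe and Gfi1) rose, from 76.5 and 77.3 to 812 and 998 summed TPM. Of 11 tested monocyte and macrophage genes 9 fell, from 3545 and 3548 to 1705 and 1712 summed TPM. All 6 tested dendritic cell genes fell, from 432 and 436 to 63.8 and 44.9. Most of the dendritic sum in WT was Ccr7, at 267 and 272 TPM. Clec9a, Cd209a and Batf3 were below 1 TPM in all 4 libraries. Of 15 proliferation genes 9 rose, and the list's summed TPM went from 830.3 and 841 to 1053 and 1421. None of its replication genes, Mcm2 to Mcm6 and Pcna, passed the threshold, and Mcm6 was lower (-0.31, limma adjusted p = 0.286). Erythroid genes summed to 13.4 and 11.5 TPM in WT and 52.3 and 73.9 in the libraries labelled KO, with Hbb-bs at 0 and Alas2 and Klf1 below 1 TPM in all 4. Of 4 tested erythroid genes 3 rose: Tfrc, also used by dividing cells, at 8.69 and 8.39 TPM in the WT libraries, against 26.5 and 25.3 TPM in those labelled KO, and Hbb-bt and Car1, which passed the filter only through the libraries labelled KO. T cell genes summed to between 8.82 and 14.7 TPM and B cell genes to between 4.05 and 9.48. NK cell genes summed to 11.4 and 11.8 in WT and 0.43 and 1.71 in the libraries labelled KO. Nearly all of the NK sum in WT was Klrk1, at 10.93 and 11.15 TPM. Ncr1 and Klra8 were at 0, and Klrb1c, Prf1, Gzma and Eomes below 1 TPM, in all 4 libraries. The ribosomal RNA precursor Rn45s took 0.923% and 0.894% of TPM in WT and 0.134% and 0.298% in the libraries labelled KO (-2.18, limma adjusted p = 0.00653). It was unequal between the libraries labelled KO, at 1342 and 2984 TPM. As an mRNA kit was used, this share need not follow the amount of the precursor in the cells.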

How the data were processed

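RNA-seq of 4 libraries was analysed from TPM values deposited by the authors, each library summing to about 1000000 over 24589 rows, of which 92 are ERCC spike-ins. Per the submitters' processing notes, the tools were STAR and RSEM and the build mm10; their versions and the gene models were not given in the sources used here. QIAzol extraction and a stranded mRNA kit were used, per the labels' protocols. TPM states no depth, so depth was estimated from the steps of low values (73.1% to 76.0% lay within 0.2 of a whole multiple), and no counting interval is given.

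The mean log2(TPM + 1) of the WT libraries was taken as 1 sample against 2 labelled KO, since the WT libraries differed by little more than sampling noise. Over the members that variance was 1.59 times sampling in WT and 10.39 times in the libraries labelled KO. Genes with at least 1 TPM in at least 2 libraries (11919) entered limma 3.58.1 (R 4.3.3), with an abundance trend and robust estimation, two-sided, with Benjamini-Hochberg adjustment over all of them and a threshold of 0.05. With 1 residual degree of freedom the WT sample is assumed to vary like the others. Errors of log2 differences are standard errors, and the log2(TPM + 1) scale understates changes of low genes. On simulated data (11919 genes, 200 changed, 10 runs) 99.7% of log2 changes of 1 were recovered, and 4.4% of calls were false. The simulation used independent noise of the same SD for all genes and no shift shared between genes. These rates therefore do not describe the calls made here. The correlation of replicate differences between groups was -0.01. As the WT differences were close to sampling noise, this value cannot show whether the replicate numbers paired the libraries.

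Members and gene lists were chosen with earlier results of these data known. Named genes are the 6 largest differences per direction and the 4 most abundant members in each subunit, the stalk, Rpl5 and Rpl11, anaemia and paralog lists, low members that reach 0.1 TPM, up to 2 genes per direction in each pathway list, and Tet2 and Rn45s. Rpl9, Rpl34, Rpl38, Rpl10a, Fau, Npm1, Xist, the markers and the copies of members were named after their values were seen. A few genes the rule chose are not reported here. Copies were found with BLAST 2.17.0 against GENCODE M21. Alternatives covered the pseudocount, filter, scaling, model, samples and left-out libraries.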

Additional observations from a re-analysis of the deposited data

How the results depend on the processing

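The calls depend mostly on the scaling and the filter. Over all genes, where 3177 were lower, 2662 higher and the median log2 difference was -0.11, ERCC scaling gave 1489, 4964 and 0.437, and no filter gave 1796, 253 and 0. With ERCC, Rn45s and the most abundant genes left out of the total, that median was 0.0465. Large subunit members called lower numbered 40, against 0 with no filter, 0 with ERCC scaling, 5 with quantile normalization and 22 with the reduced total. Small subunit members called lower numbered 27, against 1 with no filter, 1 with ERCC scaling and 5 with quantile normalization. The 1 higher member of each subunit became 0 with a filter of 5 TPM and 0 with no filter. The large subunit median of -0.93 was -0.337 with ERCC scaling and -0.693 with quantile normalization, and the small subunit median of -1.01 was -0.413 and -0.666. Relative to the ERCC total, the summed level was 78.6% of WT for the large subunit, 77.5% for the small and 78.1% for both; this ratio was added after seeing the data. With no filter the member medians were -0.93 and -1.01. The cause of the changes with quantile normalization was not tested.

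Rpl11 was 0.0431 with ERCC scaling and 0.0427 with quantile normalization. With ERCC scaling Rpl27 was 0.0557, Rpl7l1 0.27 and Rps6ka3 0.196. Of the 71 named genes tested, 33 lost their call with ERCC scaling, 57 with no filter and 25 with quantile normalization. With no filter the log2 differences of these genes moved by 0, and only their p-values changed.

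Members that departed upward from the median member, 2 in the fit as described, numbered 0 with a filter of 5 TPM, 16 with both WT libraries as samples and 9 with the replicate block. With that block 49 large and 32 small subunit members were lower, against 49 and 32 for 2 against 2 without it. Since it is not known whether the replicate numbers paired the libraries, the block is only a check.

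Leaving out one library at a time, the all-gene counts ranged from 3192 to 5674 lower and from 2651 to 4321 higher. Large subunit members lower ranged from 40 to 49 and small from 27 to 32. Departures ranged from 0 to 25 lower and from 2 to 45 higher, the high ends without a library labelled KO, where the lone library left is assumed to vary like WT. The log2 difference of Ltn1 ranged from -0.0344 without replicate 2 labelled KO to 0.204 without replicate 1. Depth is unknown from TPM beyond the estimate given, and only 3 samples entered the fit.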
